A study of Mus musculus with 2 samples.

Results

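The genes described here build and shape the extracellular matrix of skeletal muscle: the fibrillar, fibril-associated, type VI and basement membrane collagens, laminin chains, nidogens and perlecan, small leucine-rich proteoglycans, fibronectin and microfibril proteins, matricellular proteins, and a few enzymes and inhibitors that act on collagen. A list of 43 gene symbols was matched to annotated genes in both libraries. Reads were found for 42 of the 43, of 14900 annotated genes with reads in all. The remaining gene, Postn (periostin), had 0 reads in both libraries, which allows up to 1.99 reads per 1000000 (CPM) in replicate 1 and 2.56 CPM in replicate 2, set at 3 reads per library.

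The RNA came from gastrocnemius, the large calf muscle. The mice were male B6CASTF1/J, a first-generation cross of C57BL/6 and CAST strains, and their age was between 18 and 20 months. There was 1 group of 2 libraries, biological replicates 1 and 2, and no second condition. Each library started from 2 µg of total RNA, to which SIRV and Ambion mix 1 spike-ins were added. The libraries held 1509380 and 1173233 long cDNA reads, of which spike-ins took 2.71% and 0.59%. The labels give the replicates separate biosamples under the same donor record and do not say whether each is 1 mouse or pooled tissue. Tests between the libraries therefore compare these libraries, not conditions, have no replicate check, and measure a spread that may be technical.

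Collagens are trimers whose chains are built of Gly-X-Y repeats, with glycine opening each repeat. Fibrillar collagens I, III and V form the tensile fibres of tendon and of the connective tissue around muscle fascicles. Collagen IV and laminins form the sheet that wraps each muscle fibre and capillary, held together by nidogens and perlecan, while collagen VI links that sheet to the fibres outside it. Small leucine-rich proteoglycans bind collagen fibrils and set their width. Most of these proteins are made by fibroblasts, tendon cells and vascular cells within the muscle, so in a bulk sample fewer cells of a type and less RNA per cell cannot be told apart.

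The repeat is written in the exons that the long reads had to cross. In the 16 collagen genes, 474 of 770 internal coding exons (61.6%) had a length that is a multiple of 9, against 103 of 540 (19.1%) in the other 27 matrix genes and 14% of 155251 in all other coding genes of the GENCODE M21 annotation. Exons of 54 nucleotides (nt) numbered 204 in the collagens, 21 of them in Col1a1 and 24 in Col3a1. An exon of each is shown 5′ to 3′ with the glycine codon (GGN) that opens each repeat in capitals, because this unit recurs through the most read collagen transcripts. The Col1a1 exon lies at chr11:94939904-94939957 (plus strand, mm10) and the Col3a1 exon at chr1:45325360-45325413 (plus strand, mm10).
Col1a1 exon 8: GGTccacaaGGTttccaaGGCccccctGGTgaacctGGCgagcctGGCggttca
Col3a1 exon 6: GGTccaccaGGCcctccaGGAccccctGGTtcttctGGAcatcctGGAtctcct
A GGN codon opened each repeat for 338 repeats without a break in Col1a1, 339 in Col1a2 and 344 in Col3a1. The same run was 87 in Col6a1 and Col6a2, 40 in Col4a1 and 66 in Col4a2, where interruptions divide the repeat, and 4 or fewer in each of the 27 matrix genes that are not collagens.

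The shortest exons were absent from the reads. Internal exons of the matrix genes with at least 3 reads across them were counted by crossings, a read counting once for each exon it spans. The 5 exons of 12 nt or less were held in 0 of 81 crossings. Exons of 13 to 30 nt were held in 87.4% of 721 crossings, and exons over 30 nt in 99.6% of 95245. The short exons that no spanning read held are printed in capitals between 30 nt of their neighbours in the annotated transcript, on mm10, since 4 genes with such exons had no read in an annotated transcript.
Col6a1 exon 29, chr10:76712865-76712873, minus strand: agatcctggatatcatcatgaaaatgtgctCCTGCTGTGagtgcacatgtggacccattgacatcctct
Col6a1 exons 6 and 7, chr10:76721088-76721283, minus strand: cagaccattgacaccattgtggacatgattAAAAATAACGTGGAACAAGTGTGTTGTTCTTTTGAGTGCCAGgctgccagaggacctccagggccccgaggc
Col1a2 exons 2 and 3, chr6:4508335-4508954, plus strand: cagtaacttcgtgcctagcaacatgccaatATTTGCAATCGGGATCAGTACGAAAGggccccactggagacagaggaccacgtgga
Col6a3 exon 35, chr1:90782217-90782228, minus strand: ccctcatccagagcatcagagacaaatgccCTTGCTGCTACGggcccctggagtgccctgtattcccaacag
Lama2 exon 44, chr10:27053028-27053033, minus strand: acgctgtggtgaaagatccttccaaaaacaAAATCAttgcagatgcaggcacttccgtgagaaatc
Lama2 exon 53, chr10:27021461-27021472, minus strand: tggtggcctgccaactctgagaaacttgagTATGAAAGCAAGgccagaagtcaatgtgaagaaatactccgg
All of them are coding. For contrast, 2 other short exons are shown that nearly every spanning read held.
Col5a2 exon 3, chr1:45438870-45438883, minus strand: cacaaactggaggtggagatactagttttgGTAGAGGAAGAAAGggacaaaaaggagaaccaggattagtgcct
Col6a2 exon 4, chr10:76614109-76614129, minus strand: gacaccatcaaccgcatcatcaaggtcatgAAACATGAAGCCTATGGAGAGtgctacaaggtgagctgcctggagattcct

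Col6a1 encodes the α1 chain of collagen VI. Its 9-nt exon 29 was in 0 of 27 spanning reads of replicate 1 and 0 of 26 of replicate 2, and its 21-nt exons 6 and 7 were in 0 of 12 and 0 of 22. The 27-nt exons 11 and 12 of this gene were in 31 of 37 and 33 of 38. In Lama2, the α chain of the laminin of the muscle fibre sheet, the 6-nt exon 44 was in 0 of 10 reads and the 12-nt exon 53 in 0 of 11 over both libraries. Exons 2 (11 nt) and 3 (15 nt) of Col1a2, the α2 chain of collagen I, were crossed by only 4 reads, none of which held them. Exon 35 of Col6a3, the long α3 chain of collagen VI, was in 0 of 3. Length alone did not separate held from lost exons, because the 14-nt exon 3 of Col5a2 was in 8 of 8 reads and the 21-nt exon 4 of Col6a2 in 28 of 29.

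Part of the missing sequence length was made up between the outer edges of the flanking exons. The added nt are a net count over that stretch and do not show where the bases lie. In 52 of the 53 reads across Col6a1 exon 29, 4 nt were added. This left the model 5 nt short of the annotation over these 3 exons. At exons 6 and 7, 37 nt were added in 34 of 34 reads, again 5 nt short in all. Whether part of exon 6 or 7 was among these bases was not examined. At Lama2 exon 53, 8 nt were added in 11 of 11 reads and the model was 4 nt short. At exon 44 nothing was added and the model was 6 nt short. In the 4 Col1a2 reads, 4 of the 26 nt were added. The 3 exons over 30 nt that no read held with both annotated edges (37 and 45 nt in Col6a1, 139 nt in Lama2) each lay beside a lost exon.

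This was not particular to matrix genes. Over all genes, 15 annotated internal exons of 12 nt or less were held by every basic coding transcript that spans them and had at least 20 reads across them. In all 15 the exon was in under 50% of the reads, and the median was 0%. The same count was 13 of 27 for 13 to 20 nt, 14 of 257 for 21 to 30 nt and 10 of 1830 for 31 to 50 nt. The cause was not tested.

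**Figure D1:**
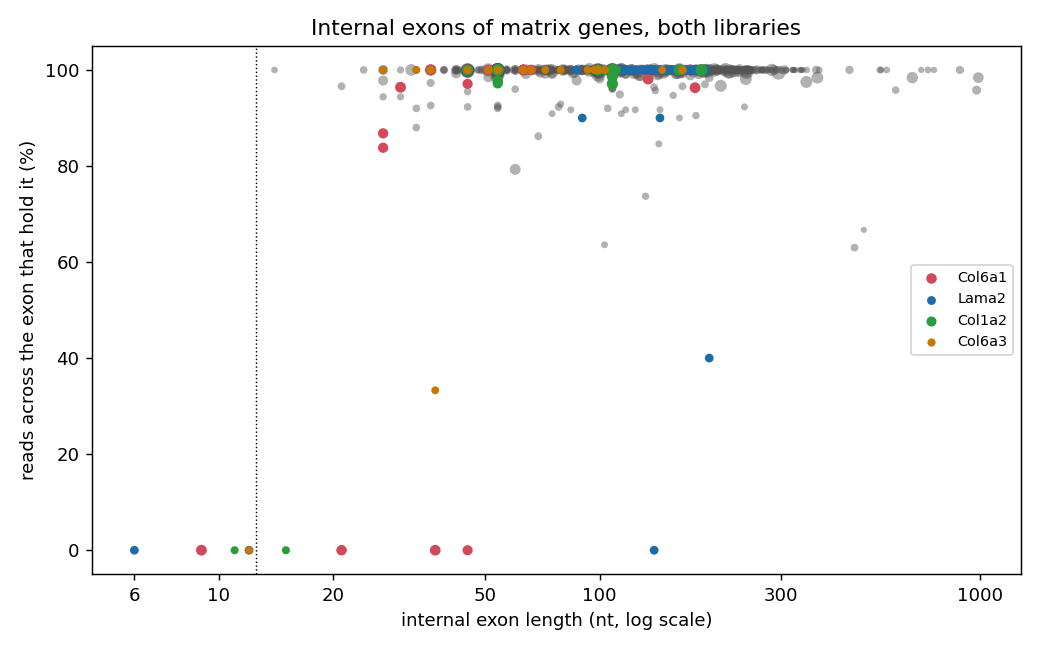
Share of reads that hold each internal exon (y axis, % of reads across the exon, both libraries summed) against exon length (x axis, nt, log scale) for exons of matrix genes with at least 3 reads across them; point size grows with the number of reads and the dotted line marks 12 nt. The 5 exons on or left of the line lie at 0%, and most exons over 30 nt lie near 100%.

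The 42 genes together took 2373 reads in replicate 1 (0.157% of the library, exact 95% Clopper-Pearson interval 0.151 to 0.164) and 2327 in replicate 2 (0.198%, 0.19 to 0.207), a mean of 0.178% ± 0.0291 (SD, n = 2). The 6 most read genes, Dcn, Col3a1, Col1a1, Sparc, Lamb2 and Serpinh1, held 59.9% and 53.2% of these reads. A read stands for 1 cDNA molecule, so CPM was not divided by transcript length, and levels of genes of unlike length are set side by side only with their lengths.

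**Figure D2:**
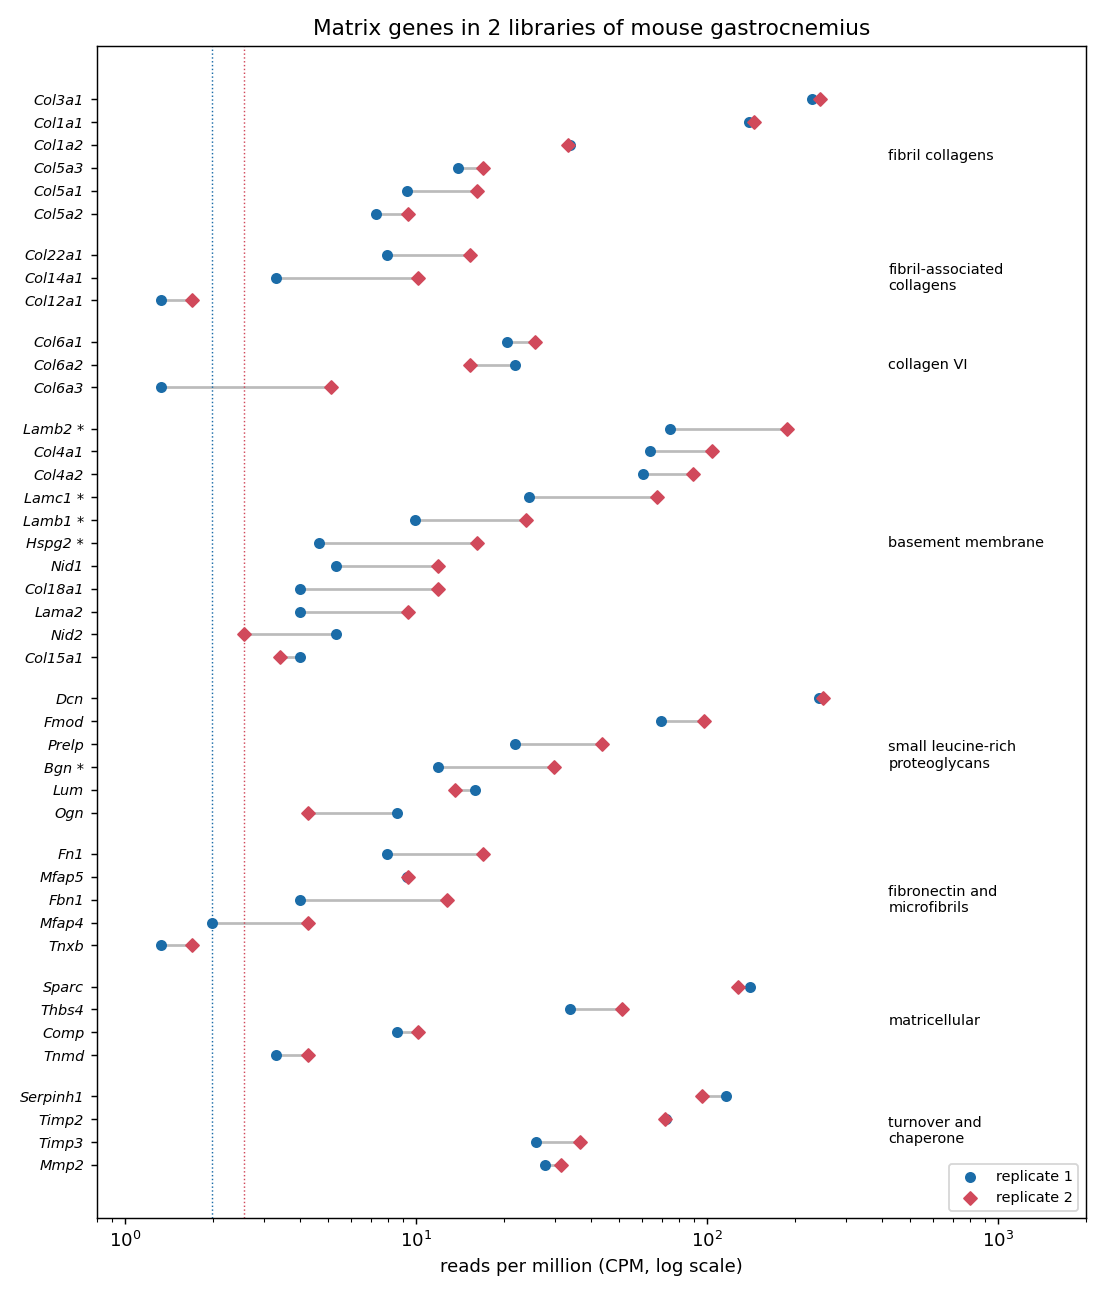
Level (x axis, CPM, log scale) of the 42 matrix genes with reads in replicate 1 (circles) and replicate 2 (diamonds), by role; dotted lines mark the level of 3 reads in each library and an asterisk marks the 5 genes called higher in replicate 2. Of the 11 basement membrane genes, 9 sit further right in replicate 2, with Lamb2 at 74.9 and 188 CPM, while Dcn, Col3a1, Col1a1 and Col1a2 nearly coincide.

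Genes were compared between the libraries by Fisher's exact test on reads, with Benjamini-Hochberg adjustment over all 9032 genes with at least 10 reads in both libraries together. A call needed an adjusted p below 0.05 and a change of at least 2-fold, and log2 ratios set replicate 2 over replicate 1, after adding 1 to CPM. Of the 38 matrix genes tested, 5 were called higher in replicate 2 and 0 lower, beside 8.24% of all genes called higher and 2.04% called lower (10.3% in either direction). At an unadjusted p below 0.05 the count was 14 of 38, against 2803 of 9032. The median log2 ratio was 0.41 over the matrix genes and 0.19 over all genes tested. Col6a3 (2 and 6 reads), Mfap4 (3 and 5), Col12a1 (2 and 2) and Tnxb (2 and 2) fell under the read minimum.

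The 3 most read fibrillar collagens had nearly the same CPM in both libraries. Col3a1, the homotrimer of compliant tissue, had 346 and 288 reads (229 and 245 CPM, 237 ± 11.5, SD, n = 2; log2 ratio 0.10). Col1a1, the main chain of collagen I, had 210 and 170 reads (139 and 145 CPM; log2 ratio 0.06), and Col1a2, its partner, had 51 and 39 (33.8 and 33.2 CPM; log2 ratio -0.02). None of these 3 genes was called, with adjusted p from Fisher's exact test of 0.642, 0.888 and 1. Collagen V, which starts fibrils and limits their width, was read far less: Col5a3 had 21 and 20 reads, Col5a1 14 and 19 (9.28 and 16.2 CPM; log2 ratio 0.74), and Col5a2 11 and 11. Together 0 of 6 fibrillar collagen genes were called, and their median log2 ratio of 0.19 equals that of all genes. Genes of like length had higher medians, 0.67 for over 5000 and up to 7000 nt and 0.75 above 7000 nt. Measured against genes of like length, Col1a1 was at -0.62, Col3a1 at -0.53, Col5a3 at -0.40, Col5a2 at -0.36 and Col5a1 at -0.01. Col1a2 could not be placed.

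The collagen I chains were read unequally in both libraries. Col1a1 exceeded Col1a2 by 4.12-fold in replicate 1 and 4.36-fold in replicate 2, at transcript lengths of 5930 and 5348 nt, with no difference between the libraries detected (Fisher's exact test p = 0.906). In the trimer itself α1 chains outnumber α2 chains. Col3a1 exceeded Col1a1 by 1.65-fold and 1.69-fold (Fisher's exact test p = 0.845).

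Fibril-associated and type VI collagens were sparse. Col22a1, found where muscle fibres meet tendon, had 12 and 18 reads, and Col14a1, which lies on the surface of collagen I fibrils, had 5 and 12 (3.31 and 10.2 CPM). Of collagen VI, Col6a1 had 31 and 30 reads and Col6a2 33 and 18 (21.9 and 15.3 CPM; log2 ratio -0.48). Col6a3, whose transcript of 10106 nt is more than 2 times the length of the 4100 nt of Col6a1, had 2 and 6. The 3 chains form one trimer, yet Col6a1 exceeded Col6a3 by 15.5-fold in replicate 1 and 5-fold in replicate 2 (Fisher's exact test p = 0.263 between the libraries). None of the 4 genes tested in these groups was called.

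Basement membrane genes were the group with most calls: 4 of 11 were higher in replicate 2 and 0 lower, with a median log2 ratio of 1.06, from 393 and 620 reads. Of all genes tested 8.24% were called higher, and 18.8% of those with transcripts over 5000 and up to 7000 nt and 23.5% above 7000 nt, where most of these genes lie. Measured against genes of like length, none of the 3 laminin calls reached 2-fold (log2 ratio 0.70 for Lamb2, 0.67 for Lamc1 and 0.50 for Lamb1), and Hspg2 could not be placed. Lamb2, the β2 chain of muscle and synaptic laminins, had 113 and 221 reads (74.9 and 188 CPM; 2.52-fold, log2 ratio 1.32, adjusted p = 8.62e-15 by Fisher's exact test). Lamc1, the γ1 chain shared by most laminins, had 37 and 79 reads (24.5 and 67.3 CPM; 2.75-fold, adjusted p = 2.87e-06 by Fisher's exact test). Lamb1, the other β chain, had 15 and 28 reads (9.94 and 23.9 CPM; 2.4-fold, adjusted p = 0.0293 by Fisher's exact test). Hspg2, which encodes the heparan sulphate proteoglycan perlecan, had 7 and 19 reads (4.64 and 16.2 CPM; 3.49-fold, adjusted p = 0.0257 by Fisher's exact test). The remaining laminin chain on the list of 43 genes, Lama2, had 6 and 11 reads (log2 ratio 1.06) and was not called.

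No difference between the libraries was detected in the proportions between laminin chains. Lamb2 exceeded Lamb1 by 7.53-fold and 7.89-fold (Fisher's exact test p = 0.866) and Lama2 by 18.8-fold and 20.1-fold (Fisher's exact test p = 1), at transcript lengths of 5629, 5784 and 9614 nt. Each laminin holds an α, a β and a γ chain. Lama2 was not the only α chain gene with reads: outside the list, Lama4 had 6 and 13 and Lama5 9 and 14. Lamc1 exceeded Lama2 by 6.17-fold and 7.18-fold (Fisher's exact test p = 0.786).

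Collagen IV, the network former of the sheet, is encoded by Col4a1 and Col4a2, which lie head to head on chromosome 8 with annotated starts that overlap by 22 nt. Col4a1 had 96 and 122 reads (63.6 and 104 CPM) and Col4a2 91 and 105 (60.3 and 89.5 CPM). Their log2 ratios of 0.70 and 0.56 passed the adjusted p (0.00318 and 0.0326 by Fisher's exact test) but not the 2-fold limit. Col4a1 exceeded Col4a2 by 1.05-fold and 1.16-fold (Fisher's exact test p = 0.692). The linker genes were low, with 8 and 14 reads of Nid1 and 8 and 3 of Nid2, as were Col18a1 (6 and 14), the source of endostatin, and Col15a1 (6 and 4).

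Dcn, which encodes decorin, was the most read matrix gene, with 365 and 295 reads (242 and 251 CPM, 247 ± 6.8, SD, n = 2; log2 ratio 0.06). Fmod, the tendon-rich fibromodulin, had 105 and 115 reads (69.6 and 98 CPM; adjusted p = 0.0542 by Fisher's exact test), and its neighbour Prelp, which anchors basement membrane to collagen, 33 and 51 (21.9 and 43.5 CPM; log2 ratio 0.96, adjusted p = 0.0132 by Fisher's exact test, short of 2-fold on the scale used). Bgn (biglycan) was the only one of 6 proteoglycan genes to be called, with 18 and 35 reads (11.9 and 29.8 CPM; 2.5-fold, adjusted p = 0.00937 by Fisher's exact test). Lum (lumican) had 24 and 16 reads and Ogn (osteoglycin) 13 and 5, neither called. Dcn exceeded Lum, which lies 46985 nt downstream on chromosome 10, by 15.2-fold and 18.4-fold.

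Fibronectin and microfibril genes had few reads and no calls among the 3 tested. Fn1 had 12 and 20 reads, Fbn1, the fibrillin of elastic microfibrils, 6 and 15 (log2 ratio 1.47, adjusted p = 0.0616 by Fisher's exact test), and Mfap5 14 and 11. Among matricellular genes, Sparc, a collagen-binding protein, had 213 and 150 reads (141 and 128 CPM; log2 ratio -0.14). Thbs4, a thrombospondin of muscle and tendon, had 51 and 60 (33.8 and 51.1 CPM; log2 ratio 0.58). Comp had 13 and 12 reads and the tendon gene Tnmd 5 and 5. None of the 4 tested was called. With annotated transcripts only, Thbs4 was called higher in replicate 2 (log2 ratio 1.22, adjusted p = 0.0189 by Fisher's exact test).

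Of the 4 genes of collagen folding and turnover, 0 were called. Serpinh1, a collagen chaperone of the endoplasmic reticulum, had 175 and 113 reads (116 and 96.3 CPM; log2 ratio -0.27). The metalloproteinase inhibitors Timp2 and Timp3 had 109 and 84 reads (72.2 and 71.6 CPM) and 39 and 43 (25.8 and 36.7 CPM). Mmp2, the gelatinase that Timp2 both binds and helps to activate, had 42 and 37 (27.8 and 31.5 CPM).

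Transcript length moved with the library ratio over all genes. The median log2 ratio of all genes rose from -0.46 for transcripts of up to 1000 nt to 0.45 for over 3000 and up to 5000 nt, 0.67 for over 5000 and up to 7000 nt and 0.75 above 7000 nt, the lengths at which most collagen and laminin transcripts lie. Against genes of like length, Bgn alone of the matrix genes placed kept its call (log2 ratio 1.14). Hspg2, Col1a2, Col6a1 and Lama2 have no annotated transcript with reads and could not be placed by length. On the same footing Col3a1 was at -0.53 and Col1a1 at -0.62, and the median of the 34 matrix genes so placed was 0.04. TMM scaling left the count at 4, without Lamb1, and DESeq2 size factors left 2 (Lamb2 and Lamc1). The median of all genes was 0.19 by total reads, 0.02 by TMM and -0.06 by DESeq2, and among all genes called, 80.2% were higher in replicate 2 by total reads, 56.5% by TMM and 44.9% by DESeq2.

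**Figure D3:**
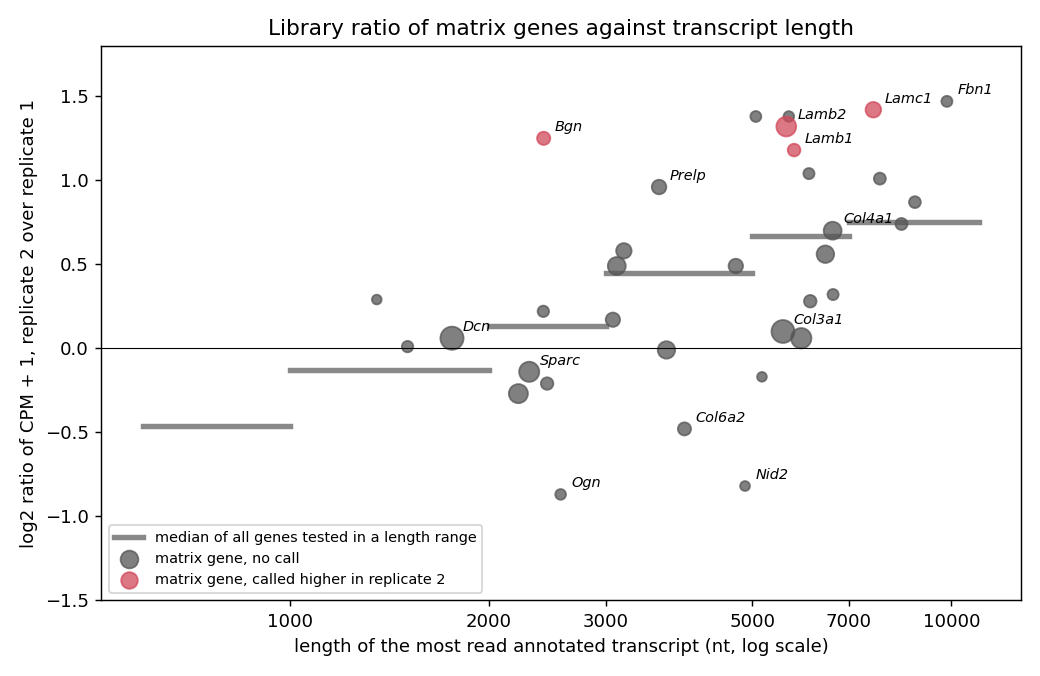
Log2 ratio of replicate 2 over replicate 1 (y axis, CPM + 1) of the 34 matrix genes with an annotated transcript length (x axis, nt, log scale); point size grows with reads, red points were called and grey bars are the medians of all genes tested in each length range. The bars climb from -0.46 to 0.75, with Lamb2, Lamc1, Lamb1 and Bgn above the bar of their length and Col3a1 below it.

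With reads pooled over genes, the share assigned to an annotated transcript was higher for matrix genes than for all genes in both libraries. So was the share of incomplete reads. The first difference rests on the muscle gene Atp2a1. This gene held 228292 of the 1436578 reads of all annotated genes in replicate 1 and 205059 of 1124063 in replicate 2. None of them was in an annotated transcript. Without Atp2a1 the share over all genes would exceed that of the matrix genes. Annotated transcripts took 71% and 70.2% of matrix reads (mean 70.6% ± 0.617, SD, n = 2) against 64.2% and 60.8% for all annotated genes. Incomplete splice matches, which follow the annotated introns over part of a transcript, took 19.4% and 19.8% against 10.2% and 9.55%. Of these incomplete matrix reads, 92.4% and 93.3% kept the 3′ end and lacked the 5′ end, against 70.5% and 78.5% over all genes. Reads with an unannotated splice site took 3.54% and 4.38%, against 18.9% and 22.3% over all genes. The part of Atp2a1 in the latter was not examined.

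The pooled annotated share was higher for matrix genes in each range of transcript length up to 6000 nt and not above it. For transcripts over 2000 and up to 4000 nt it was 75.4% and 77.2% in the matrix genes and 52.7% and 50.6% in all other coding genes. The other genes of this range include Atp2a1, without which their share would exceed that of the matrix genes. For over 4000 and up to 6000 nt the annotated share was 68.9% and 68.3% against 48.1% and 51.9%. Above 6000 nt it was 35.8% and 46% in the matrix genes and 44.2% and 48.5% in the others. These shares were not tested, because reads of a gene are not replicates.

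**Figure D4:**
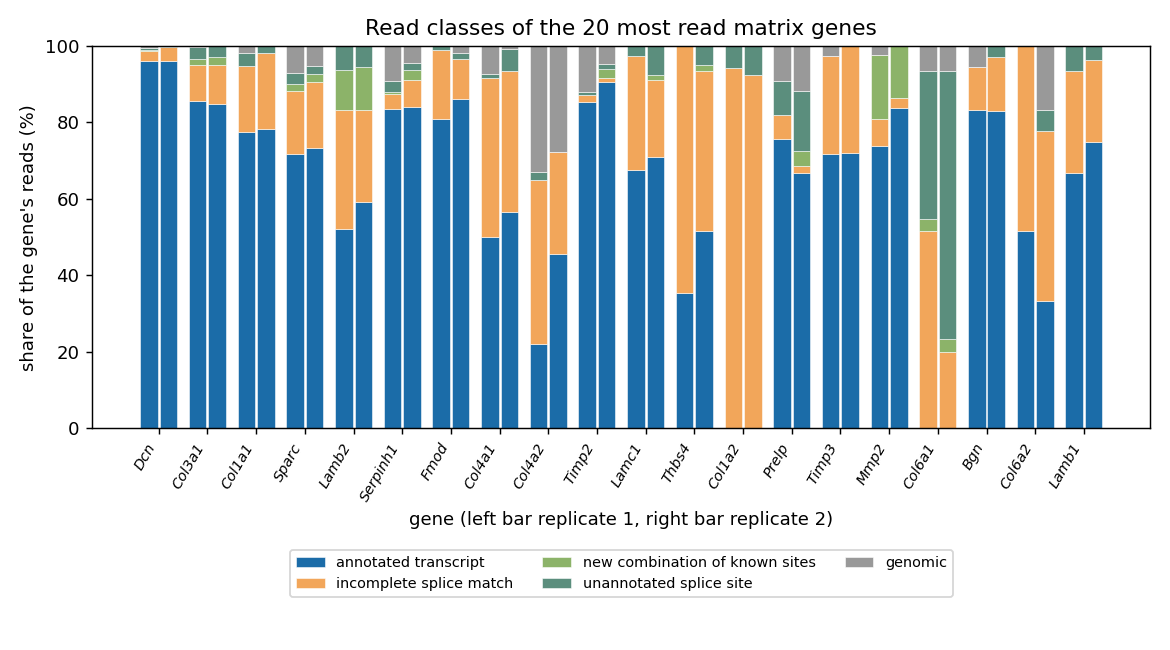
Share of reads in each class (y axis, % of the gene's reads) for the 20 most read matrix genes, with replicate 1 as the left and replicate 2 as the right bar. Dcn is almost wholly annotated (96.2% and 95.9%), Col1a2 is almost wholly incomplete (94.1% and 92.3%), and Col6a1 has no annotated reads.

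Full-length recovery differed widely between genes of similar length. Spliced reads that began in an annotated first exon made up 73.7% of matrix reads in replicate 1 and 74.8% in replicate 2. Col3a1 reached its first exon in 312 of 346 and 258 of 288 reads (90.2% and 89.6%) across 51 exons, and Col1a1 in 168 of 210 and 135 of 170 (80% and 79.4%), also across 51. Col1a2, with 52 exons and 5348 nt, reached it in 3 of 51 and 1 of 39 reads (5.88%, exact 95% interval 1.23 to 16.2, and 2.56%, 0.0649 to 13.5). Its reads covered a median of 64.1% and 67.9% of the transcript. The gap between Col1a2 and the other main fibrillar chains was present in both libraries.

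Among the other genes the share fell with length. Dcn (1758 nt) reached its start in 97% and 96.3% of reads, Mmp2 (3078 nt) in 90.5% and 97.3%, Lamc1 (7622 nt) in 73% and 79.7%, and Hspg2 (14187 nt), the longest, in 0 of 7 and 1 of 19. Over genes with at least 10 reads, the rank correlation of length with this share was -0.642 (29 genes, replicate 1) and -0.638 (34 genes, replicate 2), as a description across genes that share a library. Lamb2 reached its start in 68.1% and 79.2% of reads, Col4a1 in 51% and 61.5%, and Col4a2 in 23.1% and 45.7%. Sparc (56.3% and 52.7%) and Thbs4 (35.3% and 53.3%) were low for transcripts of 2300 and 3198 nt. For Sparc, 35 of 213 and 32 of 150 reads belonged to a short annotated form that is not coding. They were counted as not reaching the start, so the low value is partly due to that form.

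**Figure D5:**
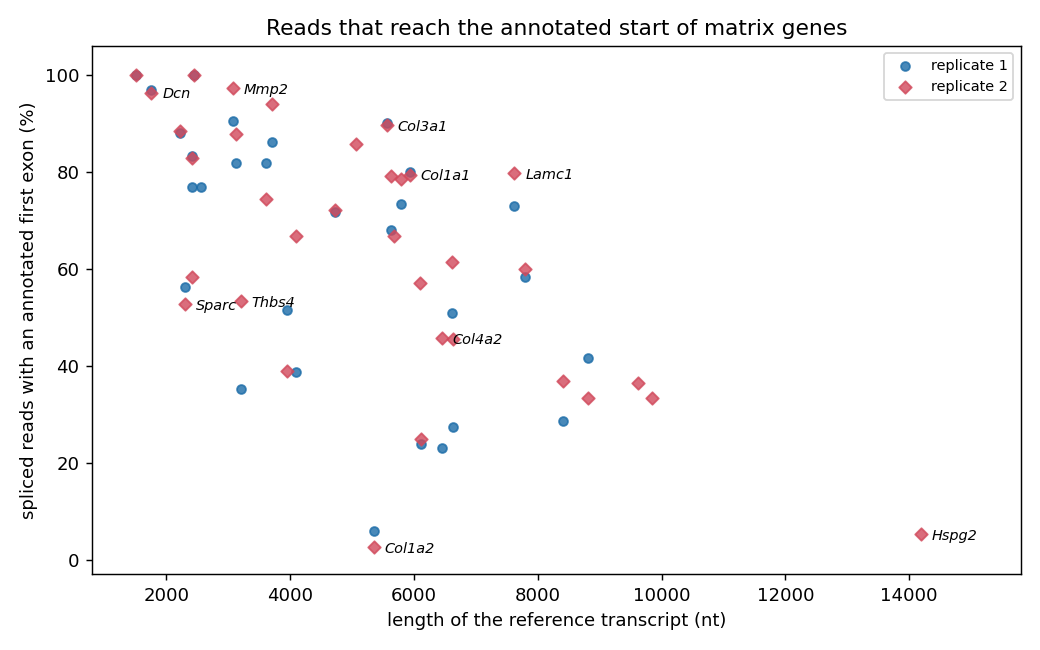
Share of reads that are spliced and begin in an annotated first exon (y axis, %) against the length of the reference transcript (x axis, nt) for matrix genes with at least 10 reads in a library; circles are replicate 1 and diamonds replicate 2. Values decline with length, Col1a2 lies near 0 at 5348 nt, and Hspg2 lies at 5.26% at 14187 nt.

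No read in an annotated transcript was found for 7 matrix genes, Col1a2, Col6a1, Col6a3, Lama2, Col12a1, Hspg2 and Tnxb, with 210 reads between them. The first 4 are the 4 matrix genes whose reference transcript holds an internal exon of 12 nt or less. For Col6a1 the most read model was an unannotated chain of introns with 9 of 31 and 18 of 30 reads (29% and 60%; Fisher's exact test p = 0.0209, adjusted p = 0.29). Counting annotated transcripts alone would list these genes at 0.

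The share of a gene's reads in its most read transcript was compared in the 18 matrix genes that reached 20 reads in both libraries. A difference was called for 1 of them at an adjusted p below 0.05, beside 2.65% of 4535 genes overall. At an unadjusted p below 0.05 the count was 2 of 18, against 479 of 4535. The called gene was Col4a2, whose annotated transcript took 20 of 91 reads in replicate 1 and 48 of 105 in replicate 2 (22% and 45.7%, adjusted p = 0.0264 by Fisher's exact test). No gene was called when the compared transcript was the most read of replicate 1, or with annotated transcripts only (4 genes tested). Its unspliced reads inside the last exon were many and alike in number, 30 and 29, and its incomplete reads were 39 and 28. Counted over annotated transcripts alone, Col4a2 was called higher in replicate 2 (log2 ratio 1.70), so the library difference of this gene depends on which reads are counted. The part of the length difference between the libraries in this result was not tested.

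The annotated transcript most read took a mean of 85.1% ± 0.585 of Col3a1 reads, 77.9% ± 0.436 of Col1a1, 87.9% ± 3.65 of Timp2 and 83.5% ± 3.63 of Fmod (SD, n = 2). It was 76.7% ± 4.19 for Serpinh1 and 69.2% ± 2.35 for Lamc1. Sparc and Thbs4 were more divided, at 41.4% ± 1.93 and 43.5% ± 11.6. The remainder in both genes included recurrent shorter forms.

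Dcn was read from 2 first exons that lie 2758 nt apart and join the same second exon (gene at chr10:97479609-97518143, plus strand, mm10). The upstream exon, at chr10:97479609-97479789, was used in 245 of 353 reads of replicate 1 and 212 of 284 of replicate 2 (69.4% and 74.6%, mean 72% ± 3.68, SD, n = 2). The downstream exon, at chr10:97482367-97482547, took the other 108 and 72 reads. Both exons are 181 nt long and untranslated, and both annotated transcripts have the same coding sequence. A difference in the split was not detected (Fisher's exact test p = 0.157). Both starts were thus used in each library, the upstream one more.

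Other genes varied at the start too. Col18a1 reads with a legible start used the far upstream start in 2 of 4 and 10 of 12 cases, against an annotated start that lies 52602 nt downstream (Fisher's exact test p = 0.245). Prelp had an unannotated first exon 8707 nt upstream of its annotated start, at chr1:133929902-133930121, in 1 of 28 and 5 of 43 reads (3.57% and 11.6%; Fisher's exact test p = 0.392). Lamb2 used a donor site 5 nt upstream of the annotated end of exon 1 in 10 of 73 and 21 of 162 reads (13.7% and 13%; Fisher's exact test p = 0.839). None of these starts and donors was shown to differ between the libraries.

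Sparc exon 3 was joined at 2 acceptor sites 3 nt apart. The upstream site was used in 101 of 126 and 64 of 81 reads (80.2% and 79%; Fisher's exact test p = 0.861). The junction is shown with the 3 nt that only the longer form holds in capitals, at chr11:55407277-55407279 on the minus strand of mm10.
Sparc exon 2 and exon 3: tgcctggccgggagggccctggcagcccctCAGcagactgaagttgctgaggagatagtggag
The longer form thus repeats CAG at the junction. A short annotated form of 5 exons took 35 of 213 and 32 of 150 reads (16.4% and 21.3%; Fisher's exact test p = 0.272), and is annotated as a retained intron rather than as coding.

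Fibronectin was read mostly in forms without its extra domains. The EIIIA exon (270 nt, chr1:71603660-71603929) was in 2 of 10 and 2 of 17 reads, and the EIIIB exon (273 nt, chr1:71613763-71614035) in 0 of 10 and 0 of 17, which allows shares of up to 30.8% and 19.5% (exact 95% Clopper-Pearson). Forms with these domains are typical of embryonic and healing tissue, and the plasma form from liver lacks both. The variable region was whole in 17 of 27 reads (exon of 467 nt), shortened in 6 (392 nt) and skipped in 3 (107 nt). With 27 reads the shares are coarse, and no difference between the libraries was detected, with the lowest p at 0.274 by Fisher's exact test.

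At the other end of the transcript, Mmp2 carried an unannotated intron of 461 nt inside its last exon (chr8:92852714-92853174) in 7 of 41 and 5 of 37 reads (17.1% and 13.5%; Fisher's exact test p = 0.759). Thbs4 had recurrent short reads of its last 3 exons (15 of 51 and 9 of 60) and last 4 exons (12 of 51 and 8 of 60), beside 18 and 31 reads of the complete form. Timp3 had 9 of 39 and 8 of 43 reads that held the last exon alone. The short Thbs4 forms had the same introns in both libraries. The positions of the Timp3 reads were not compared between the libraries.

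The 3′ ends were examined for Col1a1, Col1a2, Col3a1 and Timp3. Ends are legible in unannotated and incomplete reads, since annotated models carry the ends of the annotation. In Col1a1, 39 of 43 and 36 of 37 such reads ended within 50 nt of a point 1194 nt before the annotated end. In Col3a1, 46 of 48 and 42 of 44 ended 690 nt before it, and in Col1a2, 40 of 51 and 34 of 39 ended 535 nt before it. A poly(A) signal (AATAAA) stood in the last 40 nt at the Col1a2 and Col3a1 positions, and neither AATAAA nor ATTAAA at the Col1a1 position. In these 3 collagen genes the shorter end thus held most of the reads on which an end could be seen. Timp3 reads ended mostly at the annotated end (9 of 10 and 9 of 12).

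Single-exon reads classed as genomic lay in the last exon for each model with at least 5 reads. Some were listed with lengths of a few nt, such as 7 nt for a Serpinh1 model with 16 and 5 reads and 1 nt for a Timp2 model with 13 reads in replicate 1. They were kept in the gene totals. Without incomplete and genomic reads, Timp2 moved from a log2 ratio of -0.01 to 0.10.

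Genes that modify, bind or surround collagen were read beside the structural genes, and their counts stand beside the 8.24% of all genes called higher. Of 21 collagen-modifying enzymes, 15 were tested, 2 were higher in replicate 2 and 0 lower (median log2 ratio 0.26). Both were lysyl oxidases, which cross-link collagen and elastin: Lox with 5 and 15 reads (log2 ratio 1.68) and Loxl1 with 8 and 23 (1.71). P4hb, a subunit of prolyl 4-hydroxylase, was level with 333 and 260 reads (221 and 222 CPM). Colgalt1, which glycosylates collagen, had 101 and 94.

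Of 20 matrix receptors, 14 were tested, 3 were higher and 0 lower (median log2 ratio 0.58). The integrin chains Itga5 (12 and 25 reads) and Itga6 (6 and 16) and the syndecan Sdc3 (8 and 21) were called. Centred on length, Itga5 was at 0.82 and Sdc3 at 0.96, short of 2-fold, and Itga6 at 1.06. Itgb1, the common β chain, had 176 and 244 reads (log2 ratio 0.83, adjusted p = 9.46e-08 by Fisher's exact test, no call), and Itgb5 96 and 146. Among 40 further matrix genes, 5 of 25 tested were higher and 0 lower: Ltbp4 (135 and 262), Fbln2 (62 and 122), Aspn (6 and 18), Cilp (10 and 21) and Thbs1 (4 and 20). Centred on length, Ltbp4 (0.69), Fbln2 (0.74) and Cilp (0.81) fell short of 2-fold, while Aspn (1.61) and Thbs1 (1.63) did not. Smoc2, the most read after Ltbp4, had 184 and 163 reads and no call.

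Of 14 proteases and inhibitors, 2 of 6 tested were higher, Adamts1 (25 and 98 reads, log2 ratio 2.27) and Mmp15 (29 and 54), and 0 lower. Centred on length, Mmp15 was at 0.59 and Adamts1 at 1.69. Htra1 (128 and 74) and Adamts1 were the most read, followed closely by Timp4 (67 and 54). Of 16 genes of growth factor signalling, 3 of 14 tested were higher and 0 lower: Ccn1 (19 and 142 reads, log2 ratio 3.17), Ccn2 (16 and 34) and the receptor Tgfbr2 (12 and 26). Igfbp5 (328 and 191) and Mstn (183 and 78) were the most read. Their log2 ratios were -0.41 and -0.86 without a call (adjusted p = 0.0103 and 6.76e-05 by Fisher's exact test). Centred on length, Igfbp5 was at -1.09 and Mstn at -1.02, so both passed 2-fold in the lower direction. On that footing Ccn1 was at 3.19, Ccn2 at 1.26 and Tgfbr2 at 1.00. Ccn1 and Ccn2 are matricellular proteins whose genes respond early to stretch and serum.

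Markers of the cells that make matrix gave unlike counts of calls. None of 11 fibroblast markers tested was called (summed 3070 and 3270 CPM; 3 of the 12 on the list are fibrillar collagens and 2 proteoglycans described above), nor any of 5 tendon markers (140 and 181 CPM; Tnmd, Thbs4, Comp and Fmod are on that list too). Most of the fibroblast sum came from Gsn (2220 and 2360 CPM), so it says little about the other fibroblast markers. Of endothelial markers 3 of 6 were higher in replicate 2 (59.6 and 118 CPM in all), beside 8.24% of all genes tested: Kdr, Cldn5 and Tek. Pecam1 and Cdh5 were not called. Ly6c1 went the other way without a call (29 and 16 reads, log2 ratio -0.47), as did Emcn, which was under the read minimum (4 and 2). Of smooth muscle and pericyte markers 3 of 5 were higher (178 and 379 CPM): Myh11, Tagln and Rgs5, of which Rgs5 fell short of 2-fold centred on length (0.52). Most of that sum was Rgs5 (148 and 303 CPM). Pdgfrb (15 and 14 reads) and Notch3 (6 and 8) were not called, at -0.38 and 1.19 centred on length. Endothelial cells, smooth muscle cells and pericytes also lay down basement membrane, and their part in the basement membrane difference was not tested. Muscle fibre markers summed to 324000 and 318000 CPM, but within the list Myh1, a fast myosin heavy chain, was called higher in replicate 2 (1678 and 6663 reads, log2 ratio 2.35, 1.67 centred on length). Tnnc2 and Tnnt3 had log2 ratios of -0.91 and -0.75 without a call, and of -0.37 and -0.21 centred on length. Mbp of Schwann cells (22 and 39 reads) and Lep of adipocytes (7 and 29) were called higher, each the only one of 3 and 4 tested. Immune markers were near the floor except Cd74 (49 and 16 reads, called lower) and Lyz2 (51 and 25). Centred on length, Cd74 was at -0.88, short of 2-fold.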

How the data were processed

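Long-read RNA sequencing of 2 gastrocnemius libraries was deposited as raw read counts per transcript model, 1 table per library. Per the deposited README files, the authors derived the counts from alignment to mm10 with GENCODE M21. TALON is the source named in the annotations the authors deposited. The sources used here do not give an aligner, a platform or versions.

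Counts were summed per gene over all read classes and expressed per 1000000 reads (CPM). Exon structures came from the deposited annotation of each library. The reference transcript of a gene was its most read annotated coding transcript with at least 50% of the exons of the longest (without reads, the one with most exons), and a read held an exon when both splice sites matched. Sequences were cut from GENCODE M21 transcripts (mm10). Genes with at least 10 reads were compared with Fisher's exact test (two-sided) with Benjamini-Hochberg adjustment over all genes, using scipy 1.17.1 and Python 3.11.15. TMM factors (edgeR 4.0.16) and DESeq2 (1.42.0) size factors served as alternatives. Clopper-Pearson intervals and floors cover counting error only. The test was checked on simulated counts: of 199 genes changed 2-fold among 9002, 62 were called, and of 200 changed 4-fold among 9014, 174.

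The members, gene lists and named genes (the 20 most read members, those called, isoforms from 20 reads in each library, and from the other lists those called and the 2 most read) were chosen with earlier results of these data known. Genes named beyond this rule were chosen after their values were seen.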

Additional observations from a re-analysis of the deposited data

Results flagged for a closer look

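Reads classed as antisense lay outside the gene totals. They overlapped 19 of the 43 matrix genes, with 20 reads in replicate 1 and 26 in replicate 2, and were above the floor of 3 reads in 3 cases. Over Col5a2 there were 4 antisense reads in replicate 1, and over Lama2 there were 4 in replicate 1 and 7 in replicate 2. The sense reads of Lama2 were 6 and 11, so the antisense count was of the same order there. Overlap was counted over the whole annotated span of a gene, introns included. Whether the antisense reads overlapped exons was not examined. The strand assignment of these reads was not tested.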

How the results depend on the processing

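No paired analysis was possible because there was 1 group. Each result was recomputed with 1 choice changed at a time. The count of 5 matrix genes called was 2 with DESeq2 size factors, 3 at a read minimum of 50 (19 genes tested) and 1 after centring on transcript length, and the count over all genes was 558 and 474 under the last 2. The median log2 ratio of matrix genes was 0.23 with TMM, 0.15 with DESeq2, 0.30 at a minimum of 50, 0.54 with annotated transcripts only and 0.04 after centring. The count of changed dominant transcripts was 0 when the transcript was chosen in replicate 1 and 0 with annotated transcripts only (4 genes tested). The annotated share was 71.7% as a median over genes. Without either replicate, the share of reads ranged from 0.157% to 0.198%, the annotated share from 70.2% to 71% and the Dcn-201 first exon from 69.4% to 74.6%. The sign turned in genes that were not called: with TMM, Dcn -0.13, Col3a1 -0.09, Col1a1 -0.13 and Mmp2 -0.01; with DESeq2, -0.21, -0.17, -0.21 and -0.09; after centring, Col3a1 -0.53, Col1a1 -0.62, Col4a2 -0.12, Timp3 -0.09 and Mmp2 -0.12; Timp2 0.19 with annotated transcripts only, 0.10 without incomplete and genomic reads and 0.02 with the deeper library thinned, where Col1a2 was 0.04. Lamb1 lost its call under 6 alternatives. The cause was not tested. Calls of Lamb2 and Lamc1 were lost by centring and by no other alternative run. Calls were gained by Col4a2 (log2 ratio 1.70) and Thbs4 (1.22) with annotated transcripts only. Without incomplete and genomic reads the same genes gained a call (1.42 and 1.25). The match of short exons by any base, added after seeing the data, gave 0% as the exact match did. In simulated counts, 62 of 199 genes changed 2-fold were called, as were 49 of the 88 among them with at least 100 reads.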
